A study of Mus musculus with 13 samples.

Results

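The mannose receptor gene Mrc1 and the genes of 3 further C-type lectin receptors, Mgl2, Clec10a and Clec7a, were followed through a survey of histone H3 acetylated at lysine 27 (H3K27ac) in mouse macrophages. These 4 genes, of 21887 protein-coding genes in the annotation, were chosen by name, and the value of each was the reads in the H3K27ac islands that touched its span or 1 kb on either side. An island is a stretch in which the authors found more reads from the immunoprecipitation than from a control. H3K27ac marks active promoters and enhancers, and no RNA or protein was measured in these libraries.

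The cells were bone marrow-derived macrophages of C57BL/6 mice, on day 7 of culture in medium conditioned by L929 cells, and the antibody was ab4729. Libraries from both cytokines together (IFNγ at 100 ng/ml with IL-4 at 10 ng/ml), from IL-4 alone and from IFNγ alone were each made after 2 h and 4 h, beside a library of untreated cells. These 7 libraries are called the cytokine experiment here, because the labels name no shRNA for them. A further 6 libraries, the knockdown experiment, came from macrophages with an shRNA to JunB, an shRNA to C/EBPβ or a scramble shRNA, each after 4 h of IFNγ at 100 ng/ml and untreated. Every condition had 1 library, the labels do not say how many mice were pooled, and 1 shRNA label is given for each target. A fold between a pair of libraries therefore has no replicate check, and its 95% interval covers counting error only. With H3K27ac from bulk chromatin, more marked cells and more marking per cell cannot be told apart.

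C-type lectin receptors bind sugars through a folded carbohydrate-recognition domain. Mrc1 encodes CD206, an endocytic receptor for glycans that end in mannose, fucose or N-acetylglucosamine. Mgl2 and Clec10a lie near each other and encode the macrophage galactose-type lectins CD301b and CD301a, which in mice bind N-acetylgalactosamine and Lewis X structures. Clec7a encodes Dectin-1, a receptor for fungal β-glucan that signals through the kinase Syk and the adaptor Card9. IL-4, acting through STAT6, is a textbook inducer of Mrc1 and Mgl2 in macrophages, while IFNγ drives the inflammatory state.

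The recovered depth ran from 14340693 reads, in IFNγ-treated scramble cells, to 37419916, after both cytokines for 4 h. In the cytokine experiment 77.1% to 80.0% of the reads lay in islands, and in the knockdown experiment 65.1% to 73.0%. Depths and shares rest on the smallest total of control reads that fitted the deposited folds, 14110230. A total of 28220460 fitted too and would give larger depths and smaller shares in islands. Reads were divided by size factors, so that the values below are normalised reads, comparable between libraries for 1 gene. Where a library had no island at a gene, the gene is given as not called, since reads below the authors' threshold were not listed. All 11 macrophage markers, among them Csf1r and Adgre1, had islands in every library. So did 11507 of all 21887 protein-coding genes, and 14658 had an island in at least 1 library. An island in every library is thus not particular to these markers or to the members. Of 7 mast cell and basophil markers, at most 2 had an island in any library, and Ms4a2, the β chain of the high-affinity IgE receptor, was the 1 called after IL-4, with 5715 normalised reads at 2 h and 4977 at 4 h, while none was called in untreated cells. After both cytokines the summed level of these markers was 3052 at 2 h and 1797 at 4 h. Of 9 dendritic cell markers, 5 to 7 were called in each library, and Cd209a and Ccr7 never were. Of 8 fibroblast markers, 1 or 2 were called, and Col3a1 and Pdgfra never were. Pdgfrb was called in every library, and the summed level of these markers was 9661 to 15913 normalised reads. Of 6 B cell markers, 2 to 4 were called and Pax5 never was, and of 8 neutrophil markers, 2 to 4 were called and Ly6g and Mpo never were. Of 7 T cell markers, 3 or 4 were called and Cd8a never was, and their summed level was 1373 to 2899 normalised reads in treated cells against 7501.5 to 9732 in untreated cells, with Cd4 among them. The summed level of the dendritic cell markers was 7213 to 21501 normalised reads in treated cells against 7905 to 10454 in untreated cells. The summed level of the neutrophil markers after 4 h of IFNγ was 4787 to 6375 normalised reads, over the 4 backgrounds, against 1376.5 to 4528 in untreated cells. That of the B cell markers was 1280.1 to 2896 in treated cells of the cytokine experiment, against 7474 in untreated cells. In the knockdown experiment it was 2873 to 6416 after IFNγ, against 3711 to 4652 in untreated cells. The part of such cells in the results below was not tested. H3K27ac at the target of an shRNA does not check a knockdown of its RNA. Junb had 7062 normalised reads in IFNγ-treated shJunB cells against 6446 in IFNγ-treated scramble cells, and Cebpb had 12204 in IFNγ-treated shCEBPb cells against 4655 in IFNγ-treated scramble cells. Cebpb also had 12120 in IFNγ-treated shJunB cells and 10487 after 4 h of IFNγ in the cytokine experiment. In untreated cells Cebpb had 2976 with shCEBPb against 3014 with scramble.

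The promoter sequences of 3 members are given because the islands over them carry the results. RefSeq windows of GRCm38.p6, each running from 250 bases before the start site to 50 bases from it, were searched on both strands for GAGGAA (a PU.1 core), TTCNNNNGAA (the spacing known for STAT6), TGANTCA (AP-1), TTGCNNAA (C/EBP) and GAAANNGAAA (an IRF repeat). Capitals mark the matches, and a match is a run of letters and not a shown binding site. The Mrc1 window is chr2:14229164-14229463 on the plus strand, the Mgl2 window chr11:70130107-70130406 on the plus strand and the Clec7a window chr6:129472736-129473035 on the minus strand.
Mrc1: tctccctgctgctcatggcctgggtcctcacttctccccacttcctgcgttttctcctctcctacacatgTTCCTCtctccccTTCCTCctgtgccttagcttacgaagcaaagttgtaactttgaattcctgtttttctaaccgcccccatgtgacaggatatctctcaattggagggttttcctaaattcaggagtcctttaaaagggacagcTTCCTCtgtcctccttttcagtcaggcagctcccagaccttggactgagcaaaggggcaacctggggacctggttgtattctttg
Mgl2: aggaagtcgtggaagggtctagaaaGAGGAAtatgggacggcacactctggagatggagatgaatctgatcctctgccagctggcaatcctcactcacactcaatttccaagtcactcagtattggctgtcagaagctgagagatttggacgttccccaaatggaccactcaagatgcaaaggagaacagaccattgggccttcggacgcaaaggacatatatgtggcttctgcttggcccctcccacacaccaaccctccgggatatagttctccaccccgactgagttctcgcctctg
Clec7a: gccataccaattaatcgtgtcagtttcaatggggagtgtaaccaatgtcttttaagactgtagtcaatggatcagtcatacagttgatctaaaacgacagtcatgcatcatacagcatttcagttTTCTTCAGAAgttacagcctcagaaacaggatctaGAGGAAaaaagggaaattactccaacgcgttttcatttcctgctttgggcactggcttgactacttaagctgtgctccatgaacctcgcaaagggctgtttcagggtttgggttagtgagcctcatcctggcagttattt
The Mrc1 window held 3 PU.1 cores, at -180, -167 and -35 from the start site, each on the opposite strand. The Mgl2 window held 1 PU.1 core, at -225. The Clec7a window held 1 PU.1 core, at -90, and 1 stretch with the STAT6 spacing, at -125, TTCTTCAGAA. Among 32851 promoter windows of the same length, 28.3% held the PU.1 core, 6.95% the STAT6 spacing, 7.81% the AP-1 letters, 10.8% the C/EBP letters and 3.44% the IRF repeat. Islands covered the whole Mrc1 and Clec7a windows in 13 of 13 libraries and the whole Mgl2 window in 9 of 13.

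Mrc1 (chr2:14229414-14332023, GRCm38, plus strand) had islands in all 13 libraries, and its H3K27ac was highest after IL-4 and lowest after 4 h of IFNγ. Its islands held 8278 and 5952 normalised reads after both cytokines for 2 h and 4 h. They held 16632 and 12932 after IL-4 for 2 h and 4 h, and 3911 and 1386 after IFNγ for 2 h and 4 h, against 5577 in untreated cells. By islands touching the gene, IL-4 alone thus stood above every other library at both times, and IFNγ alone stood below untreated cells at both times. In the knockdown experiment Mrc1 had 817 normalised reads in IFNγ-treated shJunB cells against 3566 in untreated shJunB cells. It had 990.1 in IFNγ-treated shCEBPb cells against 3287 in untreated shCEBPb cells, and 694 in IFNγ-treated scramble cells against 3754 in untreated scramble cells. The 4 libraries with 4 h of IFNγ alone held 694 to 1386, and the 4 untreated libraries 3287 to 5577. How many of all genes part in this way was not counted.

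The acetylated domain at Mrc1 covered the start site and the first part of a gene of 102.6 kb. The extent of the islands touching the gene differed between conditions. After IL-4 for 4 h a single island of 84.0 kb ran from -31.4 to 52.6 kb of the start site, with 152 normalised reads per kb. After IL-4 for 2 h the island over the start site ran from -31.4 to 10.8 kb, with 286 normalised reads per kb, the densest of any island at the gene. With both cytokines it ran from -12.4 kb to 52.2 kb at 2 h and to 52.4 kb at 4 h, with 121 and 88.4 normalised reads per kb. After IFNγ for 4 h it was 7.2 kb long, from -1.4 to 5.8 kb, with 84.4 normalised reads per kb, and 5 shorter islands lay within the gene. In untreated cells it ran from -1.8 to 11.4 kb, with 175 normalised reads per kb. Islands touching the gene thus reached farther before it with IL-4 alone than in any other condition, where they ended at -12.4 kb or nearer. Separate islands farther out are not in this comparison. After both cytokines at 2 h, all islands from -31.4 to 52.6 kb held 15274 normalised reads, and the island over the start site 7825. In 7 libraries an island at Mrc1 also touched Tmem236, a membrane protein gene before it.

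**Figure D1:**
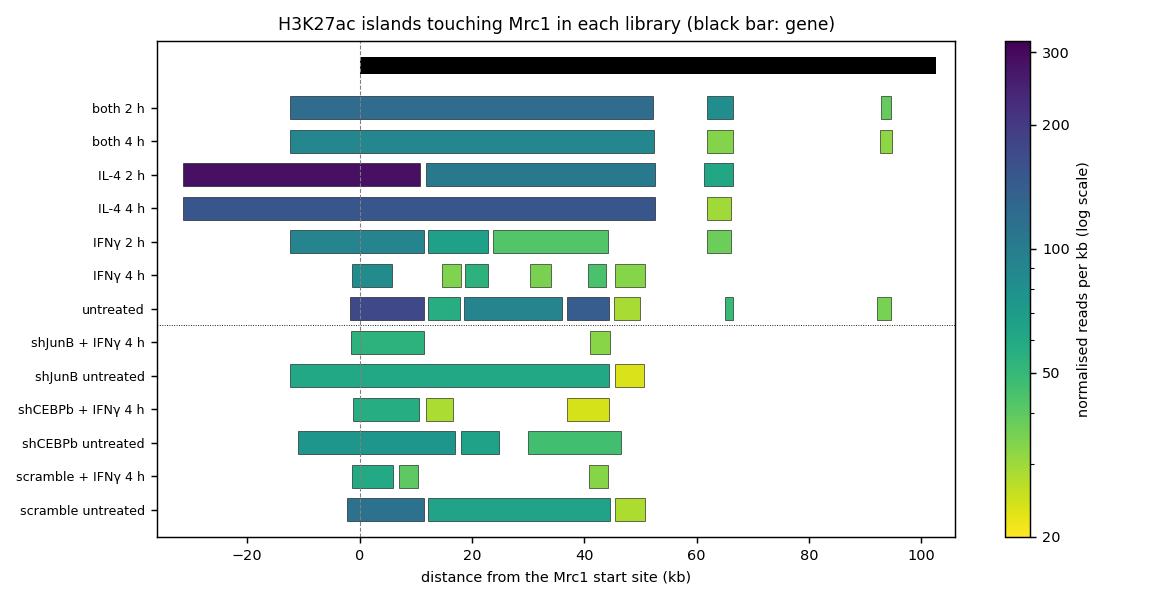
H3K27ac islands touching Mrc1, drawn by distance from its start site in kb, with 1 row for each of the 13 libraries and colour for normalised reads per kb on a log scale. The IL-4 islands reach to -31.4 kb, and the islands over the start site in all 4 libraries with 4 h of IFNγ alone start no farther out than -1.6 kb.

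Because a joined island brings distant reads into a gene's sum, islands of all libraries that overlapped were also merged into regions with the same edges everywhere. The Mrc1 region over the start site, chr2:14198001-14282000, held 15274 and 9329 normalised reads after both cytokines for 2 h and 4 h, 16325 and 12801 after IL-4, and 8517 and 2874 after IFNγ, against 8155 in untreated cells. IL-4 was 2.98-fold (95% interval 2.89 to 3.08) above untreated at 2 h by islands touching the gene and 2.00-fold (1.95 to 2.06) by the region. At 4 h the IL-4 folds were 2.32 (2.24 to 2.40) by islands and 1.57 (1.52 to 1.62) by the region. IFNγ for 4 h was 4.03-fold lower (3.81 to 4.25) by islands and 2.84-fold lower (2.73 to 2.95) by the region. At 2 h of IFNγ, islands gave a value 1.43-fold lower (1.36 to 1.49), and the region gave 1.04-fold higher (1.01 to 1.08). The direction at 4 h was the same by both measures, and at 2 h it was not. The ranking of IL-4 alone above every other library did not hold by the region. There both cytokines at 2 h (15274) stood above IL-4 at 4 h (12801).

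Mgl2 (chr11:70130125-70137542, GRCm38, plus strand) was weakly marked in untreated cells and showed the largest fold of the 4 genes after IL-4. It had 904 and 3140 normalised reads after both cytokines for 2 h and 4 h, 1839.8 and 2205.5 after IL-4, and 122 and 191 after IFNγ, against 279 in untreated cells. The 4 libraries with IL-4 held 904 to 3140 and the other libraries of that experiment 122 to 279, a split not counted over all genes. IL-4 was 6.59-fold (5.74 to 7.59) above untreated at 2 h and 7.90-fold (6.90 to 9.08) at 4 h. Both cytokines were 3.24-fold (2.80 to 3.76) above untreated at 2 h and 11.3-fold (9.85 to 12.9) at 4 h. IFNγ was 2.29-fold lower (1.82 to 2.90) at 2 h and 1.47-fold lower (1.22 to 1.76) at 4 h. In the knockdown experiment Mgl2 was not called after IFNγ in shJunB cells, against 88.2 normalised reads in untreated shJunB cells. It had 57.7 after IFNγ in shCEBPb cells, against 187 in untreated shCEBPb cells, and was not called after IFNγ in scramble cells, against 194.5 in untreated scramble cells. The 4 called values of Mgl2 in that experiment, 57.7 to 194.5, were lower than its untreated value in the cytokine experiment.

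The Mgl2 island over the start site widened with IL-4. It ran from -4.8 to 4.2 kb at 2 h and from -7.6 to 4.8 kb at 4 h of both cytokines. It ran from -6.8 to 5.0 kb at 2 h and from -7.6 to 4.4 kb at 4 h of IL-4, and from -2.2 to 0.0 kb at 2 h and from -4.4 to 0.2 kb at 4 h of IFNγ, against -3.6 to 0.4 kb in untreated cells. At 4 h of both cytokines a second island, from 6.4 to 23.4 kb with 1136 normalised reads, began inside the gene and entered its sum. By the region over the start site alone, chr11:70122801-70135400, both cytokines at 4 h gave 2004 normalised reads, against 2166 after IL-4 at 4 h and 279 in untreated cells, a fold of 7.18 (6.27 to 8.24) over untreated. The region past the gene, from 6.4 to 23.4 kb, had 330 and 1136 normalised reads after both cytokines, 688 and 873 after IL-4 and, after IFNγ, was not called at 2 h and had 90.0 at 4 h, while it was not called in untreated cells. Within the cytokine experiment the 4 libraries with IL-4 were thus above the other 3, a split not counted over all regions. In the knockdown experiment the region past the gene held 64.4 in untreated shCEBPb cells and 174 in untreated scramble cells.

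Clec10a (chr11:70166623-70170836, GRCm38) had islands in all 13 libraries and, unlike Mrc1 and Mgl2, was close to its untreated value after IL-4 alone. It had 7429 and 7663 normalised reads after both cytokines for 2 h and 4 h, 3451 and 3664 after IL-4, and 4536 and 351 after IFNγ, against 3560.3 in untreated cells. The 2 libraries with both cytokines were the highest of the 13, at 2.09-fold (2.00 to 2.18) and 2.15-fold (2.07 to 2.24) above untreated at 2 h and 4 h. IL-4 alone stood at 0.969 (0.922 to 1.02) of untreated at 2 h and 1.03 (0.981 to 1.08) at 4 h. In the knockdown experiment Clec10a had 149 normalised reads in IFNγ-treated shJunB cells against 2181 in untreated shJunB cells. It had 2197 in IFNγ-treated shCEBPb cells against 3853 in untreated shCEBPb cells, and 160.3 in IFNγ-treated scramble cells against 2985 in untreated scramble cells.

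The lowest values of Clec10a stood in the libraries where a long island fell outside the gene's window. In 10 of 13 libraries a second island, up to 44.6 kb long, began between 3.4 and 3.8 kb from the lower-coordinate end of the gene and was counted with it. In IFNγ-treated cells at 4 h, and in IFNγ-treated shJunB and scramble cells, the long island began farther away and only the island over the lower end was counted. Merged regions have no such edge. The region from -4.2 to 2.6 kb, chr11:70162401-70169200, held 1343 and 1346 normalised reads after both cytokines, 869 and 988 after IL-4, and 755 and 351 after IFNγ, against 639.7 in untreated cells. The region from 3.4 to 49.6 kb, chr11:70170001-70216200, held 6086 and 6317 after both cytokines, 2816 and 2735 after IL-4, and 3780.4 and 2263 after IFNγ, against 2921 in untreated cells. The lower-end region was 1.36-fold (1.22 to 1.52) and 1.54-fold (1.39 to 1.72) above untreated after IL-4 at 2 h and 4 h, while the longer region was at 0.964 (0.913 to 1.02) and 0.936 (0.887 to 0.989). After IFNγ for 4 h the 2 regions were 1.82-fold (1.61 to 2.07) and 1.29-fold (1.22 to 1.36) lower, against 10.1-fold lower (9.20 to 11.2) by islands touching the gene. With both cytokines the islands touched Slc16a11, a transporter gene, as well.

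**Figure D2:**
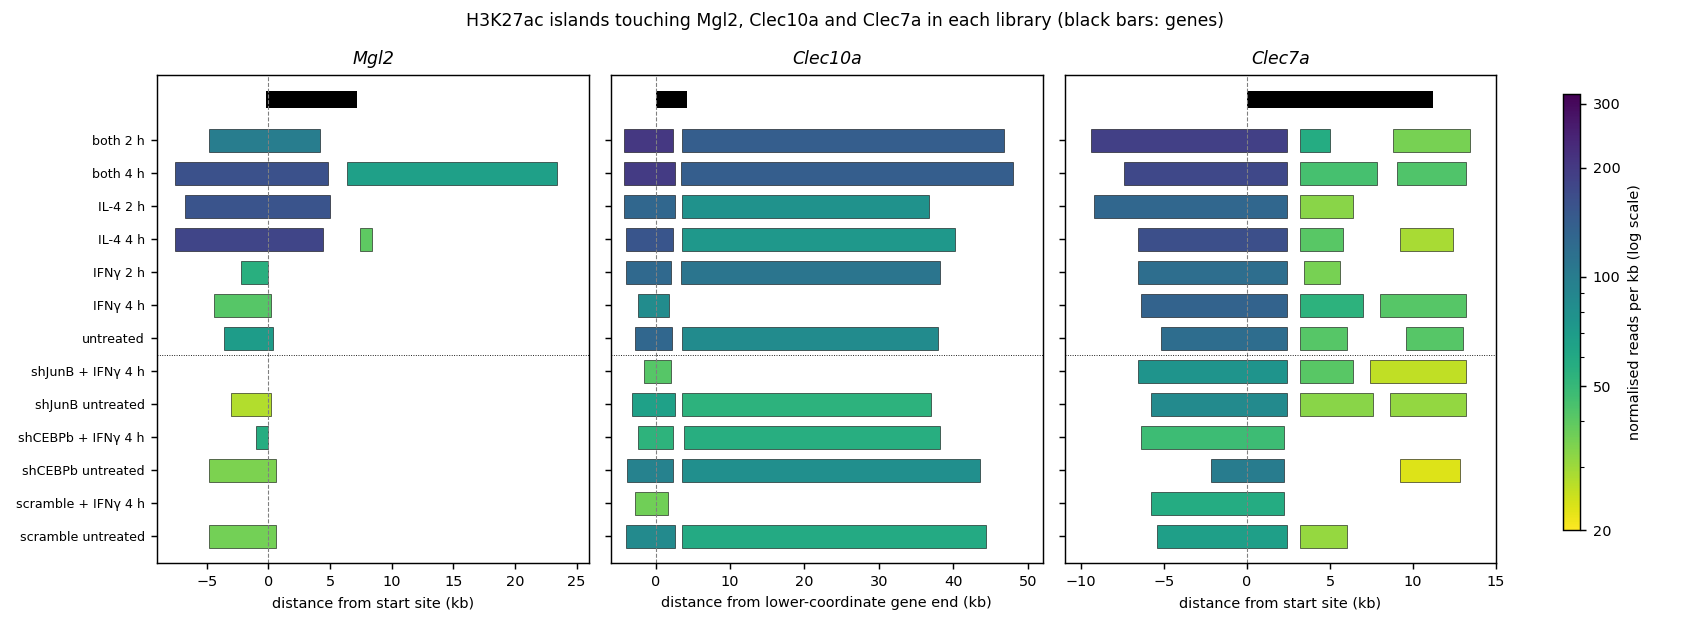
H3K27ac islands touching Mgl2, Clec10a and Clec7a, drawn by distance in kb from the start site or, for Clec10a, the lower-coordinate gene end, with 1 row for each of the 13 libraries and colour for normalised reads per kb on a log scale. Mgl2 islands are wide in the 4 libraries with IL-4, and the long second island at Clec10a is missing from 3 libraries with IFNγ because it did not touch the gene's window.

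Clec7a (chr6:129461591-129472785, GRCm38, minus strand) had islands in all 13 libraries and the narrowest range of the 4 genes. It had 2502 and 2102 normalised reads after both cytokines for 2 h and 4 h, 1584 and 1685 after IL-4, and 1150.4 and 1598 after IFNγ, against 1166.5 in untreated cells. Both cytokines were 2.15-fold (1.99 to 2.31) above untreated at 2 h and 1.80-fold (1.68 to 1.94) at 4 h, IL-4 was 1.36-fold (1.25 to 1.47) and 1.44-fold (1.33 to 1.56) above, and IFNγ was at 0.986 (0.903 to 1.08) and 1.37-fold (1.27 to 1.48) above. In the knockdown experiment all 6 values were below the lowest of the cytokine experiment, a split not counted over all genes. In untreated cells Mrc1, Mgl2 and Clec10a were also lower with scramble than in the cytokine experiment. The share of reads in islands was lower in every knockdown library (65.1% to 73.0% against 77.1% to 80.0%), and its part was not tested. Clec7a had 970.3 normalised reads in IFNγ-treated shJunB cells against 996 in untreated shJunB cells. It had 411 in IFNγ-treated shCEBPb cells against 526 in untreated shCEBPb cells, and 465 in IFNγ-treated scramble cells against 612 in untreated scramble cells. IFNγ for 4 h thus went with a higher value in the cytokine experiment and with lower values in the 3 shRNA backgrounds, with an interval that held 1 in shJunB cells, 0.975 (0.890 to 1.07). In 11 libraries the island over the Clec7a start also touched Olr1, which encodes the lectin-like receptor LOX-1.

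The region over the Clec7a start, chr6:129470401-129482200, held most of its reads. It had 2235 and 1713 normalised reads after both cytokines, 1478.5 and 1485.5 after IL-4, and 1072 and 1177 after IFNγ, against 909 in untreated cells. The region toward the end of the gene, from 3.2 to 13.4 kb, had 267 and 389 after both cytokines, 105 and 199 after IL-4, and 77.9 and 421 after IFNγ, against 257 in untreated cells. The 2 regions did not follow each other after IL-4 at 2 h, where the start was 1.63-fold (1.49 to 1.78) higher and the gene end 2.45-fold (1.93 to 3.13) lower.

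**Figure D3:**
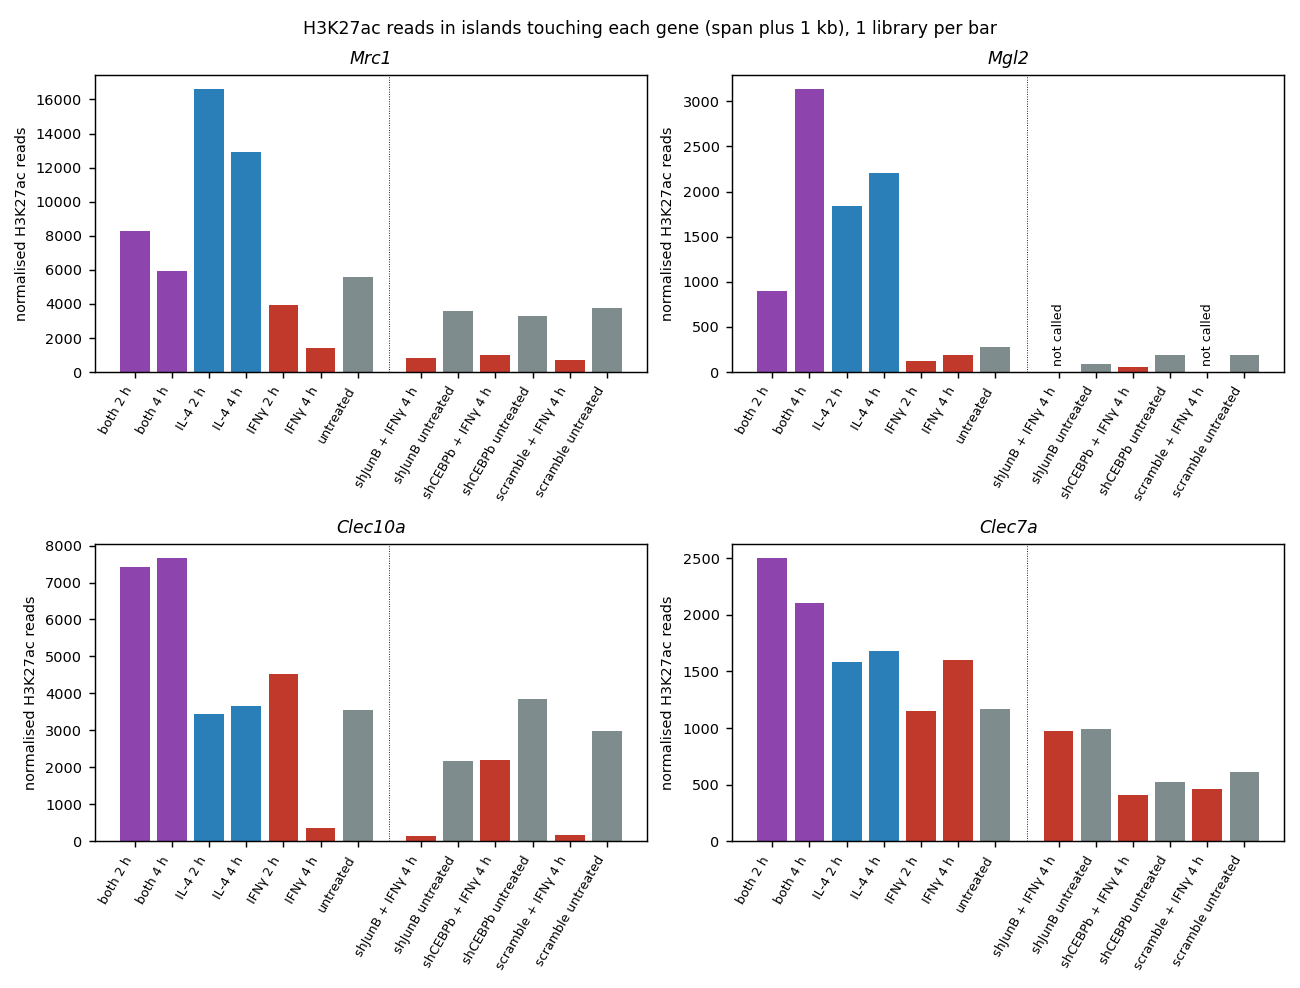
Normalised H3K27ac reads in the islands touching each gene, with 1 bar for each library, the cytokine experiment left of the dotted line and the knockdown experiment right of it. Mrc1 is highest after IL-4 alone (16632 and 12932), Mgl2 after both cytokines at 4 h (3140) and Clec10a after both cytokines (7429 and 7663).

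A size rule was applied: a fold of 2 or more, and 50 normalised reads or more in whichever library had more. It covered all genes with an island in both libraries of a pair. After both cytokines, 3 of 4 members passed as higher at 2 h (Mgl2, Clec10a and Clec7a; 14.0% of all genes tested) and 2 at 4 h (Mgl2 and Clec10a; 12.8%), and 0 passed as lower (13.1% and 11.6%). After IL-4, Mrc1 and Mgl2 passed as higher at 2 h (9.78%) and at 4 h (8.47%), and 0 members passed as lower (12.0% and 11.7%). After IFNγ, Mgl2 passed as lower at 2 h (13.1%) and Mrc1 and Clec10a at 4 h (13.9%), and 0 members passed as higher (13.7% and 14.7%). These 6 comparisons share the untreated library, so they are not independent of each other. By merged regions, Mrc1 after IL-4 at 4 h (1.57-fold) and Clec10a after IFNγ at 4 h did not reach 2-fold.

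**Figure D4:**
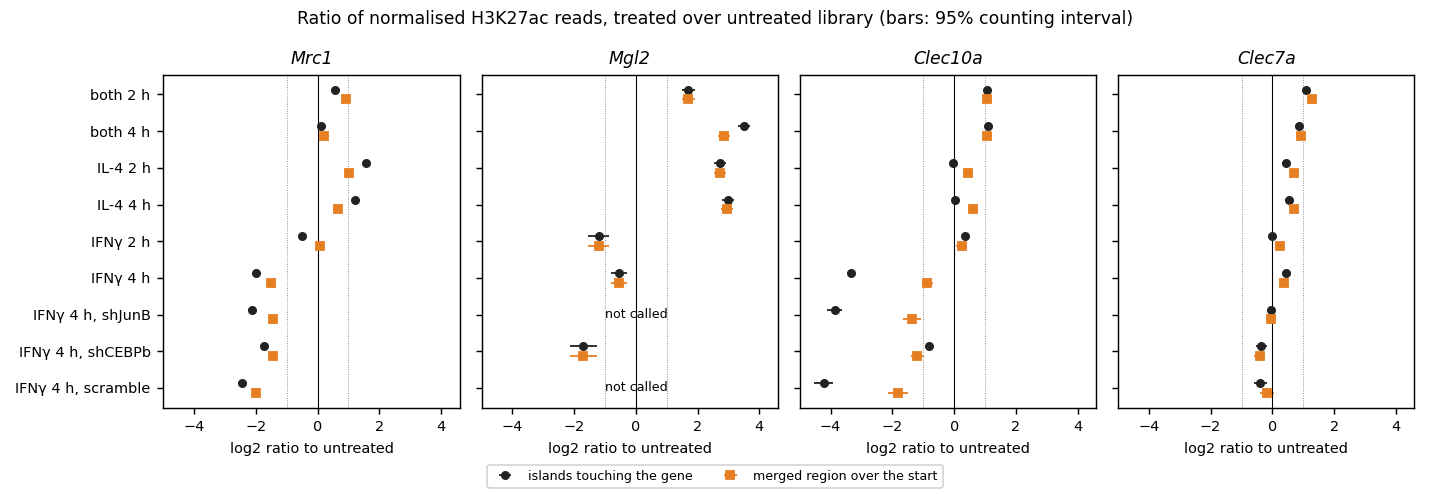
Log2 ratio of normalised reads in a treated library over its untreated library for the 4 genes, with black circles for islands touching the gene, orange squares for the merged region over the start (for Clec10a, its lower-coordinate end) and bars for 95% counting intervals. Mgl2 is right of 0 in every library with IL-4, Mrc1 is left of -1 in all 4 comparisons of IFNγ at 4 h, and the circle and square of Clec10a lie apart in all 4, with the square the lower of the 2 in shCEBPb cells alone.

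IFNγ for 4 h was tested over its 4 pairs of libraries, the cytokine experiment and the shJunB, shCEBPb and scramble backgrounds, with edgeR's quasi-likelihood test and background as a block. Of 11849 genes with an island in all 8 libraries, 15.3% were called higher and 17.8% lower at an adjusted p under 0.05. Of the 3 members tested, Mrc1 and Clec10a fell and 0 rose. Among the markers of other cells, the T cell markers Cd4 (-3.17, adjusted p = 0.00608) and Cd3d (-0.31, adjusted p = 0.0337) fell, while Xcr1 (1.185, adjusted p = 0.0432) and Itgae (0.72, adjusted p = 0.0182) rose, and of the 11 macrophage markers Lyz2 fell (-2.88) and Itgam rose (0.42). The Mrc1 log2 fold change was -2.07 (SE 0.155, adjusted p = 0.0047), lower in 4 of 4 pairs, and it was called under every alternative run. The Clec10a log2 fold change was -3.12 (SE 0.678, adjusted p = 0.0273), lower in 4 of 4 pairs, with a size set by the window's edge. That call was lost without the shJunB pair (adjusted p = 0.0911), without the scramble pair (0.0881), without the cytokine experiment pair (0.0761) and without the block (0.105). By merged regions, where 21.3% were called higher and 22.7% lower, the log2 fold changes were -1.60 (SE 0.125, adjusted p = 0.00124) for Mrc1, -1.30 (SE 0.172, adjusted p = 0.00365) for the lower-end region of Clec10a and -0.62 (SE 0.102, adjusted p = 0.00687) for its longer region. Clec7a did not pass, at a log2 fold change of -0.08 (SE 0.173, adjusted p = 0.734). Mgl2 had no island in 2 of the 8 libraries and was not tested.

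The 3 shRNA backgrounds gave the same direction for Mrc1 one by one, and each fold was past the size rule. IFNγ was 4.37-fold lower (4.03 to 4.73) in shJunB cells, 3.32-fold lower (3.10 to 3.56) in shCEBPb cells and 5.41-fold lower (4.89 to 6.00) in scramble cells. Mrc1 and Clec10a passed the rule as lower in shJunB cells (8.79% of all genes) and in scramble cells (9.55%), and Mrc1 and Mgl2 in shCEBPb cells (8.59%). As higher, 0 members passed in shJunB (9.06%), shCEBPb (8.27%) and scramble cells (7.58%). The lower-end region of Clec10a was 2.58-fold lower (2.12 to 3.16) in shJunB cells, 2.29-fold lower (1.98 to 2.66) in shCEBPb cells and 3.54-fold lower (2.85 to 4.44) in scramble cells, against a spread of 1.75-fold to 18.6-fold by islands touching the gene.

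The combination was next set against each cytokine alone. Against IFNγ, both cytokines at 2 h had 2.12-fold (2.03 to 2.202) more reads at Mrc1, 7.42-fold (6.08 to 9.12) more at Mgl2 and 2.17-fold (2.02 to 2.34) more at Clec7a, and these 3 of 4 members passed as higher (4.03% of all genes) and 0 as lower (4.52%). By the merged region Mrc1 was 1.79-fold (1.74 to 1.84) higher at 2 h and so did not reach 2-fold. At 4 h Mrc1 was 4.30-fold (4.08 to 4.52) higher, Mgl2 16.5-fold (14.5 to 18.8) and Clec10a 21.8-fold (19.9 to 24.0), and these 3 passed as higher (7.15%) and 0 as lower (6.99%). For Clec10a that fold was 3.83 (3.46 to 4.25) by the lower-end region and 2.79 (2.68 to 2.91) by the longer one. By the region over the start it was 3.25 (3.13 to 3.365) for Mrc1 and 10.5 (9.25 to 12.0) for Mgl2. The second island of Mgl2 touched its window with both cytokines and not with IFNγ alone. All 4 members were higher with IL-4 added to IFNγ at both times, where the median log2 ratio over all genes was 0.05 and 0.01. Clec7a at 4 h was 1.315-fold (1.245 to 1.39) higher, while its region toward the gene end was at 0.923 (0.821 to 1.04). In the edgeR fit over the 2 times, 0.0% of genes were called in either direction at 12159 tested, with 1785 at an unadjusted p under 0.05 and 640 called by DESeq2. The log2 fold changes were 3.48 for Mgl2 (SE 0.396, adjusted p = 0.215), 1.59 for Mrc1 (SE 0.344, adjusted p = 0.259), 2.57 for Clec10a (SE 1.26, adjusted p = 0.421) and 0.76 for Clec7a (SE 0.269, adjusted p = 0.352). DESeq2 called Mgl2, Mrc1 and Clec10a at adjusted p-values of 2.04e-13, 0.00291 and 0.0136.

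Against IL-4 the members parted. With both cytokines at 2 h, Mrc1 was 2.01-fold lower (1.96 to 2.06) and Mgl2 2.04-fold lower (1.88 to 2.21) than with IL-4 alone, while Clec10a was 2.15-fold (2.07 to 2.24) higher. At 4 h Mrc1 was 2.17-fold lower (2.12 to 2.23), Clec10a 2.09-fold (2.02 to 2.17) higher and Mgl2 1.42-fold (1.35 to 1.496) higher. At 2 h 1 member passed as higher (11.3% of all genes) and 2 as lower (8.11%), and at 4 h 1 passed as higher (11.5%) and 1 as lower (5.57%). By merged regions Mrc1 was 1.07-fold lower (1.05 to 1.09) at 2 h and 1.37-fold lower (1.34 to 1.41) at 4 h, and the rest of the difference was reads in islands before the gene that joined it after IL-4 alone. The Mgl2 region over the start was 1.08-fold lower (1.02 to 1.14) with both cytokines at 4 h, so the direction there turned with the second island. For Clec10a the lower-end region was 1.36-fold (1.26 to 1.47) higher at 4 h and the longer region 2.31-fold (2.22 to 2.41). In the edgeR fit over the 2 times 0.0% of 12127 genes were called in either direction, with 2852 at an unadjusted p under 0.05 and 1311 called by DESeq2. The log2 fold changes were -1.06 for Mrc1 (SE 0.169, adjusted p = 0.121), 1.085 for Clec10a (SE 0.182, adjusted p = 0.122), 0.49 for Clec7a (SE 0.217, adjusted p = 0.286) and -0.26 for Mgl2 (SE 0.491, adjusted p = 0.766). DESeq2 called Mrc1 (adjusted p = 0.0252) and Clec10a (adjusted p = 0.0216), both on islands touching the gene. By edgeR on merged regions, the Mrc1 region over the start was at -0.28 (SE 0.17, adjusted p = 0.362). The lower-end region of Clec10a was at 0.54 (SE 0.184, adjusted p = 0.171) and its longer region at 1.16 (SE 0.156, adjusted p = 0.0624). These fits share the libraries with both cytokines.

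The knockdowns moved few of the 4 genes past 2-fold. Against scramble in untreated cells, shJunB gave 1.63-fold (1.47 to 1.81) more reads at Clec7a and 2.21-fold fewer (1.71 to 2.87) at Mgl2, where 88.2 stood against 194.5 normalised reads. Of 4 members, 0 passed as higher (3.56% of all genes) and Mgl2 as lower (3.4%). After IFNγ, shJunB gave 2.09-fold (1.82 to 2.40) more at Clec7a, the 1 of 3 members that passed as higher (4.17%), and 0 passed as lower (2.35%). By reads per kb of island, however, Clec7a was 0.11 lower on the log2 scale in that comparison, as scramble cells had no islands toward the end of the gene, and the region over the start was 1.48-fold (1.28 to 1.71) higher. The IFNγ-treated scramble library had the fewest reads of all, and whether its depth left islands there uncalled was not tested. Over both states the edgeR log2 fold change of Clec7a was 0.88 (SE 0.155, adjusted p = 0.604), that of Mrc1 was 0.08 (SE 0.15, adjusted p = 0.88) and that of Clec10a was -0.29 (SE 0.158, adjusted p = 0.683). In that fit 0.0% of 12507 genes were called, with 1013 at an unadjusted p under 0.05 and 159 called by DESeq2.

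With shCEBPb, 0 of 4 members passed in untreated cells as higher (2.96% of all genes) or lower (2.02%), and after IFNγ Clec10a alone of 3 passed as higher (3.39%) and 0 as lower (1.52%). The 13.7-fold (11.2 to 17.0) value of Clec10a, 2197 normalised reads in shCEBPb cells against 160.3 in scramble cells, again came from the second island, which touched the window in IFNγ-treated shCEBPb cells and not in scramble cells. By merged regions it was 1.60-fold (1.26 to 2.04) at the lower end and 1.39-fold (1.29 to 1.51) over the longer region. The IFNγ-treated scramble library had the fewest reads of all, and the part of its depth in these folds was not tested. Over both states the log2 fold changes were 2.02 for Clec10a (SE 1.14, adjusted p = 0.795), 0.16 for Mrc1 (SE 0.237, adjusted p = 0.892) and -0.20 for Clec7a (SE 0.091, adjusted p = 0.795). In that fit 0.0% of 12667 genes were called, with 561 at an unadjusted p under 0.05 and 88 called by DESeq2.

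The 36 other C-type lectin receptor genes of myeloid cells were next described beside the members. After IL-4, 0 of 22 tested at 2 h and 0 of 21 at 4 h passed as higher, beside 9.78% and 8.47% of all genes. As lower, 8 and 9 passed, beside 12.0% and 11.7%, with medians of -0.67 and -0.81 against 0.05 and 0.02 over all genes. The lowest ratios at 4 h were those of Clec4d (log2 ratio -2.54), Clec4n, which encodes Dectin-2 (-2.21), and Clec4e, which encodes Mincle (-2.10), 3 receptors for microbial glycans and glycolipids. After both cytokines 5 of 23 were higher and 7 lower at 2 h, where 14.0% of all genes were higher and 13.1% lower, and the list's median was -0.32 against 0.05. At 4 h 6 of 21 were higher and 7 lower, where the shares of all genes were 12.8% and 11.6%, and the median was -0.51 against 0.05. Clec1a was among the higher genes, at 2.19 and 2.92, and Clec4d among the lower ones at 4 h, at -3.22. After IFNγ 5 of 23 were higher and 6 lower at 2 h, where the shares of all genes were 13.7% and 13.1%, and the median was 0.15 against -0.01. At 4 h 8 of 23 were higher and 5 lower, where the shares were 14.7% and 13.9%, and the median was 0.20 against 0.01. Cd69, an early activation receptor, was at 2.76 and 3.45. Between 5 and 8 genes of the list were called in only 1 library of a pair and had no ratio.

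Over the 4 pairs of IFNγ at 4 h, where 15.3% of all genes rose and 17.8% fell, 23 of the 40 C-type lectin genes were tested. Of these, 3 rose and 8 fell, with a median log2 fold change of -0.35 against -0.02 over all genes. Those that rose were Klra2 (2.43, SE 0.213, adjusted p = 0.00573), Cd69 (2.201, SE 0.445, adjusted p = 0.0234) and Clec5a, a receptor that pairs with the adaptor DAP12 (1.29, SE 0.125, adjusted p = 0.00608). Besides Mrc1 and Clec10a, those that fell were 6 neighbours in the Dectin-2 gene cluster: Clec4a3 (-2.01), Clec4b1 (-1.54), Clec4b2 (-1.45), Clec4a2 (-1.30), Clec4a1 (-0.99) and Clec4n (-0.55). That cluster had 8 genes tested, with 0 higher, 6 lower and a median of -1.15. The Dectin-1 cluster around Clec7a had 8 tested, with Tmem52b higher (3.12, adjusted p = 0.00433), Gabarapl1 lower (-0.91, adjusted p = 0.0245) and a median of 0.31. Neighbouring genes can share islands, so the members of a cluster are not independent.

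**Figure D5:**
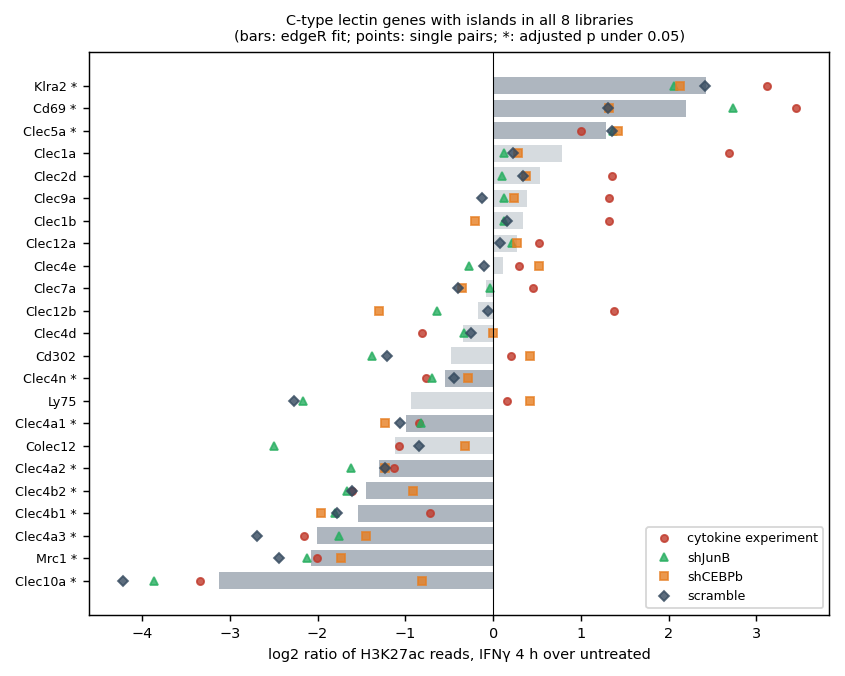
Log2 ratio of H3K27ac reads, IFNγ for 4 h over untreated, for the 23 C-type lectin genes with islands in all 8 libraries, with bars for the edgeR fit, points for the 4 single pairs and a star for an adjusted p under 0.05. Mrc1 lies left of -1 in all 4 pairs, while 1 point of Clec10a, that of shCEBPb, stands apart from the other 3.

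Of 18 partners of Dectin-1 signalling tested over the 4 pairs, 4 rose and 4 fell, with a median of 0.04, beside 15.3% of all genes called higher and 17.8% lower. Cblb, a ubiquitin ligase that restrains Syk signalling, rose by 1.15 (adjusted p = 0.00856) and the kinase gene Src by 1.06 (adjusted p = 0.01695), while Syk itself fell by 0.36 (adjusted p = 0.033) and Card9 did not pass, at -0.30 (adjusted p = 0.0704). After IL-4 at 2 h, 2 of the 18 passed the size rule as higher (9.78% of all genes) and 3 as lower (12.0%). At 4 h 0 passed as higher (8.47%) and 2 as lower (11.7%). Of 12 endocytic and scavenger receptors tested over the 4 pairs, 2 rose (Cxcl16 and Msr1) and 3 fell, Cd163 at -1.55 (adjusted p = 0.0306), Cd5l at -1.33 (adjusted p = 0.0101) and Siglec1 at -0.60 (adjusted p = 0.0206). Their median was -0.10. After IL-4 at 2 h 1 of 13 was higher (Cd36, 1.325) and 2 were lower (Cd5l, -5.30, and Stab2, -2.74). Of all genes, 9.78% were higher and 12.0% lower there.

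In the neighbourhood of Clec7a, the genes of the Dectin-1 cluster had more reads with shJunB in single pairs. Against scramble, shJunB gave 4 of 9 as higher in untreated cells (3.56% of all genes) and 5 of 9 after IFNγ (4.17%), Clec7a included. It gave 0 as lower (3.4% and 2.35%), with median log2 ratios of 0.71 and 1.06 against -0.02 and -0.01 over all genes. Clec1a was at 2.465 in untreated cells and 2.36 after IFNγ, Clec1b at 1.75 and 1.70, and Clec9a, a receptor of dead cells on dendritic cells, at 1.35 and 1.60. In the edgeR fit over both states 0 of the 9 passed, beside 0.0% of all genes, with a median of 0.88. With shCEBPb, 1 of 9 was higher (2.96% of all genes) and 1 lower (2.02%) in untreated cells. After IFNγ, 0 passed as higher (3.39%) or lower (1.52%).

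Genes with a profile over the 13 libraries like that of a member were found among 11506 genes called in all of them, by the root mean square difference of centred log2 values. Nearest to Mrc1 were Enpp1 (0.51), Ak8 (0.57) and Vrk1 (0.57), where Mrc1 itself varied with an SD of 1.42. Nearest to Clec7a were Arhgap6 (0.34), Tet2 (0.36) and Abcg1 (0.38), with an SD of 0.81 for Clec7a. Nearest to Clec10a were Uck2 (0.81), Ptgs1 (1.09) and Ctsk (1.13), with an SD of 1.87 for Clec10a that holds the window's edge. The profiles share their libraries and are given as a description.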

How the data were processed

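The processing notes of the submitters name Bowtie2 2.2.6, SICER 1.1 and mm10 (GRCm38). The authors deposited 1 island list per library, with raw counts of ChIP and control reads. Its p-value and FDR columns, highest FDR 0.00999, and its fold, a ratio of ChIP to scaled control reads, are the authors' too. Edges lay on a grid of 200 bp and islands were at least 800 bp apart, so that a small gain or loss can join or split islands. The deposited fold gave the library totals back up to a common multiple, and the smallest control total that fitted was taken. From there, ChIP counts were scaled by size factors (median of ratios) over the 14347 merged regions, of 39569, called in all libraries, and summed per gene over islands touching the RefSeq span (GRCm38.p6) plus 1 kb. Intervals are exact binomial (Clopper-Pearson), at 95%, and cover counting error only, since reads carry no molecular identifiers.

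Fits used edgeR 4.0.16 in R 4.3.3 with Benjamini-Hochberg adjustment over all genes tested, and DESeq2 1.42.0 as an alternative. SE is the absolute log2 fold change divided by the square root of F. Folds in 1 gene, matched sequences and figures used Python 3.11.15. The edgeR fits and the recovery of library totals were each tried on simulated data, and DESeq2 was not. Genes named are the 4 members, genes sharing an island with them, of each list the genes past the size rule with the largest change, and the 3 nearest profiles, apart from items not reported here. The members, lists and tests were chosen with earlier results of these data known. The lists were C-type lectin receptors, the Dectin-1 and Dectin-2 clusters, Dectin-1 signalling, endocytic receptors and markers of macrophages, dendritic cells, fibroblasts, T cells, B cells, neutrophils and mast cells with basophils. Pairs in a fit share their experiment, background, time or state by the labels, which was its block. Alternatives were other scalings, tests, windows, merged regions, reads per kb, a stricter FDR and pairs left out. The island over the start site and regions as features were added after seeing the data.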

Additional observations from a re-analysis of the deposited data

Results flagged for a closer look

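The Clec7a value after IFNγ for 4 h went in opposite directions between the experiments. Its log2 ratio over untreated cells was 0.45 in the cytokine experiment, against -0.037 with shJunB, -0.36 with shCEBPb and -0.40 with scramble. Each is a single pair of libraries, so the difference was not tested. The cytokine experiment and the knockdown experiment differ in the shRNA and in the set of libraries, which cannot be told apart.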

How the results depend on the processing

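Over 34 of 44 counts of genes called, an alternative stayed within 1.5 times the value reported. Most of these were 0 calls against 0 in the 4 fits with 2 pairs, which cannot show whether a call holds. For IFNγ at 4 h, 3923 genes were called, against 6015 with DESeq2, 6857 regions with merged regions as features, 2967 without the replicate block, and 1316 to 3794 with 1 pair left out (1316 without shCEBPb, 1424 without scramble, 1437 without shJunB). Clec10a lost its call in that fit without the block (adjusted p = 0.105) and without the cytokine experiment, scramble or shJunB pair (0.0761 to 0.0911, against 0.0277 without shCEBPb), and over all its alternatives the adjusted p ran up to 0.105, while merged regions gave 0.00399. Adding IFNγ to IL-4 gave 0 calls, against 1311 with DESeq2 and 583 with merged regions per gene, where Clec10a was called (1.03, adjusted p = 0.0497). Adding IL-4 to IFNγ gave 0 against 640 with DESeq2, shJunB 0 against 159 and shCEBPb 0 against 88, and all 4 fits gave 0 without the replicate block too. Scaling to library totals put the median of all genes at -0.16, against -0.04, on adding IFNγ to IL-4, and no call changed. With 2 pairs, leaving out a pair leaves no residual degrees of freedom, so the folds of the single pairs stand in the text with no test.

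Among 40 single-pair values of the members past the size rule, the direction turned under 4 alternatives, all in reads per kb: Mrc1 after IL-4 at 4 h to -0.20 by the island over the start site, which is spread over 84.0 kb, Mgl2 after IFNγ in shCEBPb cells to 0.73 by all islands and by the start-site island, which is 1.0 kb long there, and Clec7a in shJunB against scramble cells after IFNγ to -0.11. Of these 40 values, 34 fell under 2-fold under at least 1 alternative: 32 by reads per kb of island, 29 by reads per kb of the start-site island, 15 with islands shared out by length, 11 by merged regions, 7 with a 10 kb flank, 6 by the start-site island, 2 with library totals and 1 at the stricter FDR. Of 48 values not past the rule, 29 changed sign under at least 1 alternative. In the fits, 6 member values gained a call and 4, all of Clec10a, lost it. Conditions had 1 library each, so variation between cultures is unknown, and islands below the authors' threshold are not seen.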
